A study of Tachycineta bicolor with 12 samples.

Results

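DNA repair and meiotic recombination genes of the tree swallow, Tachycineta bicolor, were taken as the segments whose protein name held any of 14 terms, among them "DNA repair", "Fanconi anemia", "meiotic", "synaptonemal complex" and "DNA polymerase". A segment is a protein-coding stretch of the assembled transcriptome that was named by its best protein match. The terms found 101 of 14908 segments, which carried 92 distinct protein names. Gene symbols below were given from those protein names.

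Total RNA came from adult females, 1 collected at territory establishment and 1 while incubating, and for each of brain, ovary, spleen, liver, pectoral muscle and trunk blood it was pooled in equal amounts over the 2 birds. No treatment was compared, so the comparison is between tissues. Each pool was sequenced on a NextSeq and on a MiSeq instrument, which gave 12 libraries from 6 pools. These are repeat runs of 1 pool, not separate birds, so no test between tissues was possible, the spread between birds is unknown, and changes between the breeding stages cannot be seen.

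Cells mend broken DNA by several routes. A double-strand break can be copied from the sister chromatid by homologous recombination, or the ends can be joined directly. Damaged single bases are cut out by glycosylases in base excision repair, bulky lesions are removed by nucleotide excision repair, mispaired bases by mismatch repair, and cross-linked strands by the Fanconi anemia proteins. Meiosis uses the same machinery on purpose: SPO11 cuts the chromosomes, DMC1 helps to pair the cut ends with the homologous chromosome, and the synaptonemal complex zips the homologs together. In female birds germ cells enter meiosis around hatching, so the ovary of an adult holds oocytes arrested after recombination.

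For each tissue the NextSeq and MiSeq counts were added up and expressed as counts per 1000000 counts of the table (CPM). The totals ran from 16496224 counts in spleen to 42803056 in muscle, to which MiSeq gave between 1011107.5 and 2004444. A segment was called present at 1 CPM or more. No segment lengths were used, so a CPM level compares 1 gene between tissues and not 2 genes with each other. Intervals below are 95% intervals for counting error only, exact Poisson intervals for a level and exact binomial intervals for a ratio of levels. A tissue was called 2-fold higher where its level plus 1 CPM was at least 2 times that of the other tissue plus 1 CPM.

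The labelled tissues held their own markers, with exceptions among segments that share a protein name. Summed over 5 germ cell genes the level was 1712 CPM in ovary, 9.70 in spleen, 4.98 in brain and at most 0.361 elsewhere. Summed over 8 hemoglobin and other erythroid segments it was 449996 CPM in blood against 761 to 1733 elsewhere, while 3 neuronal genes summed to 2623 CPM in brain against at most 2.84 elsewhere, and 7 muscle segments to 9568 CPM in muscle against 28.3 to 310.4 elsewhere. Of these, 3 segments of the hemoglobin HBAD were highest in spleen or brain rather than blood, and 2 segments of the troponin TNNC2 in spleen or brain rather than muscle. Over 3 hepatocyte genes it was 99813 CPM in liver, 1103 in spleen and 106 in ovary. The sum over 6 segments of dividing cells was 966 CPM in ovary and 777 in spleen, against 65.0 in blood, 15.3 in brain, 6.57 in liver and 3.76 in muscle.

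As a share of each tissue's own counts, repair and meiosis genes made up more in ovary than in any other tissue. Their share of all counts was 0.693% in ovary, 0.489% in spleen and 0.328% in brain against 0.182% in blood, 0.0957% in liver and 0.0869% in muscle. A share also falls where a few segments take many of the counts. In blood the 8 hemoglobin and other erythroid segments summed to 449996 CPM, in liver 3 hepatocyte genes to 99813 and in muscle 7 muscle segments to 9568. The part of such segments in the shares was not tested. In these bulk pools, fewer cells of a type and less RNA per cell cannot be told apart. Ovary and spleen, which had the highest shares, were also the tissues with the highest levels of the dividing cell markers, and the part of dividing cells in these shares was not tested.

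Of the 101 members, ovary held 98, brain and spleen 92 each, liver 71, muscle 67 and blood 60. Over all 14908 segments the shares present were 88.3% in ovary, 87.7% in brain and 83.4% in spleen, then 66.7% in liver, 61.2% in muscle and 57.7% in blood, so the members' shares of 97% in ovary, 91.1% in brain as in spleen, 70.3% in liver, 66.3% in pectoral muscle and 59.4% in trunk blood were close to this background or a little above it. All 6 tissues held 51 members (50.5%, against 46.5% of all segments). Only the central element protein SYCE3 stayed under 1 CPM everywhere, with at most 0.470 CPM, in blood. Of the 3 members not present in ovary, SYCE3, MEIOB and MEI1, the last missed the threshold narrowly, at 0.993 CPM.

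In the 100 members with 1 CPM in some tissue, the highest level was in ovary for 61 (32.1% of all 14561 such segments), in spleen for 21 (23.7%), in brain for 9 (24.9%), in blood for 8 (8.89%), in liver for 1 (6.23%) and in muscle for 0 (4.11%). Ovary was 2-fold above every other tissue for 35 members, against 13.6% of all segments, and spleen for 7, against 8.21%. Brain led 2-fold for 2 members (13.2% of all segments), liver for 1 (3.85%) and blood for 1 (3.91%). The share led by ovary was thus above the background, and the share led by brain below it. The germ cell markers and 3 markers of granulosa and theca cells (199.7 CPM summed in ovary, at most 1.22 elsewhere) were highest in ovary as well, and the part of these cells in the lead of ovary was not tested. The median log2 ratio of ovary to the highest other tissue was 0.46 over the members and -0.74 over all segments.

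These calls depend on how tissues are scaled. With TMM factors, which balance the bulk of genes between tissues, the ovary ratio fell by 0.12 on the log2 scale against spleen and by 0.25 against brain, but by 1.97 against liver, 2.61 against muscle and 1.98 against blood. Members highest in ovary were then 42 of 98 (all segments 16.9%), and 22 of 98 were highest in blood (all segments 22%). The median log2 ratio of ovary to the highest other tissue turned to -0.43 over the members and -1.61 over all segments. The gap between both medians was 1.20 with CPM and 1.18 with TMM factors. Levels in ovary, spleen and brain thus moved little against each other, but narrow differences among them can turn. ERCC4, which was highest in spleen at 50.4 CPM, was at 28.5 CPM in ovary and 25.4 in brain. With TMM factors it was at 12.8 in ovary and 13.5 in brain. The shares of counts above use no such factors. Levels are divided by the TMM factor, 2.23 in ovary and 0.565 in blood, which would lower the share in ovary and raise it in blood. Divided in this way, the share of 0.693% in ovary comes out slightly below that of 0.182% in blood. The highest share of ovary thus holds for the unscaled counts and not with TMM factors. Each statement below rests on CPM unless another scaling is named. This matters most where ovary, spleen or brain is set against liver, muscle or blood.

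**Figure D1:**
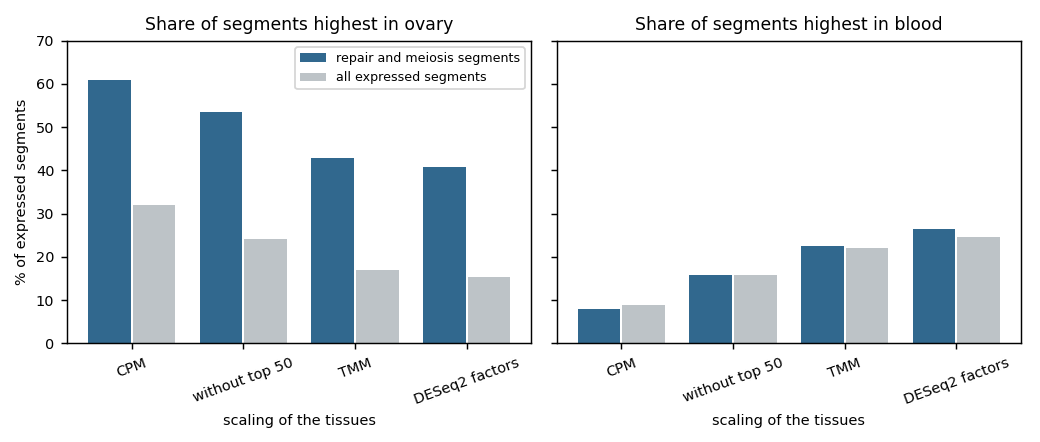
Share of expressed segments (%) that were highest in ovary (left) and in blood (right) under 4 scalings of the tissues, for repair and meiosis segments (blue) and all expressed segments (grey). With CPM 61 of 100 members were highest in ovary and with TMM factors 42 of 98, above all segments each time, while the share highest in blood was close to that of all segments.

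Against spleen alone, 41 members were 2-fold higher in ovary (29.9% of all segments) and 15 were 2-fold higher in spleen (20.3%). The median log2 ratio of ovary to spleen was 0.68 over the members and 0.23 over all segments. With TMM factors 34 of 98 members were 2-fold higher in ovary (25.4% of all segments) and 15 in spleen (20.5%). The roles differed in this: the median log2 ratio of ovary to spleen was 1.54 for the 13 Fanconi anemia genes, 1.16 for 7 replicative polymerase subunits and 1.05 for 15 homologous recombination genes, but -0.50 for 13 nucleotide excision repair segments and -2.02 for 3 translesion polymerases.

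**Figure D2:**
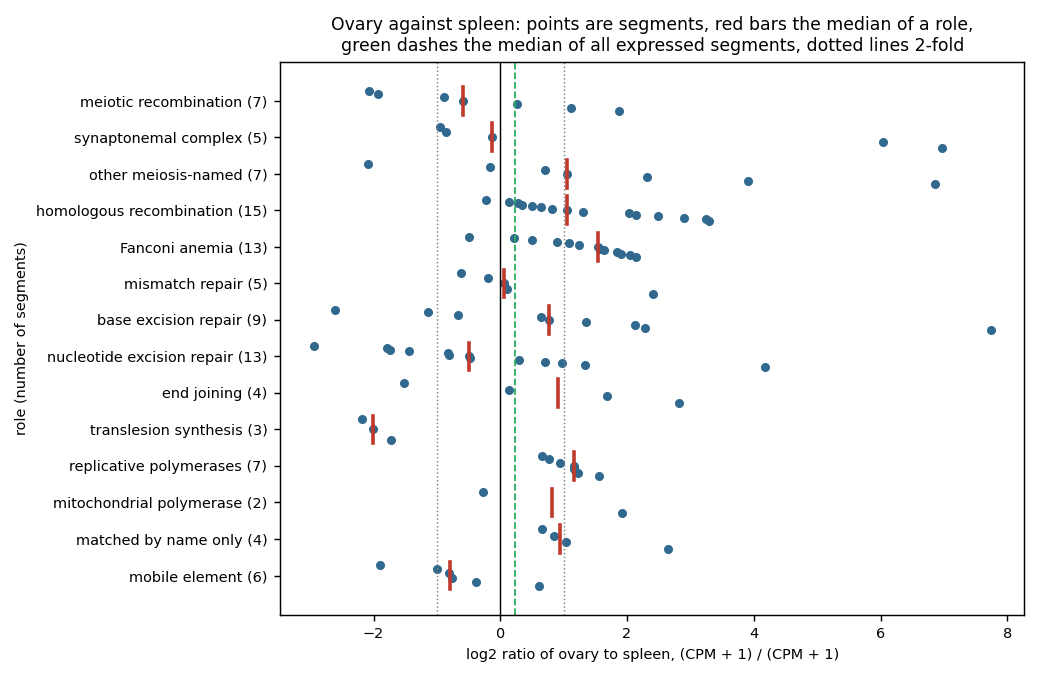
Log2 ratio of ovary to spleen, each level plus 1 CPM, for the 100 expressed members by role, with the number of segments in brackets. Red bars are medians of a role, the green dashed line is the median of all expressed segments at 0.23, and dotted lines mark 2-fold. Fanconi anemia genes lie mostly right of the line and all 3 translesion polymerases left of -1.

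The breadth of expression was given by τ, an index that is near 0 for a segment at the same level in every tissue and near 1 for a segment found in a single tissue. Levels under 2 CPM were set to 2 CPM, so a gene that is low everywhere has a τ of 0. The median τ was 0.467 over the members and 0.461 over all segments. Only 5 members had a τ above 0.8 (5.4% of all segments): NEIL2, ERCC6L, MEIOC, SYCP2 and SYCP2L, all led by ovary. A τ under 0.3 was found for 19 members (23.7% of all segments), among them SPO11 and APEX1, whose levels were under 2 CPM everywhere. APEX1 is the symbol given here to a segment named as an AP lyase.

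**Figure D3:**
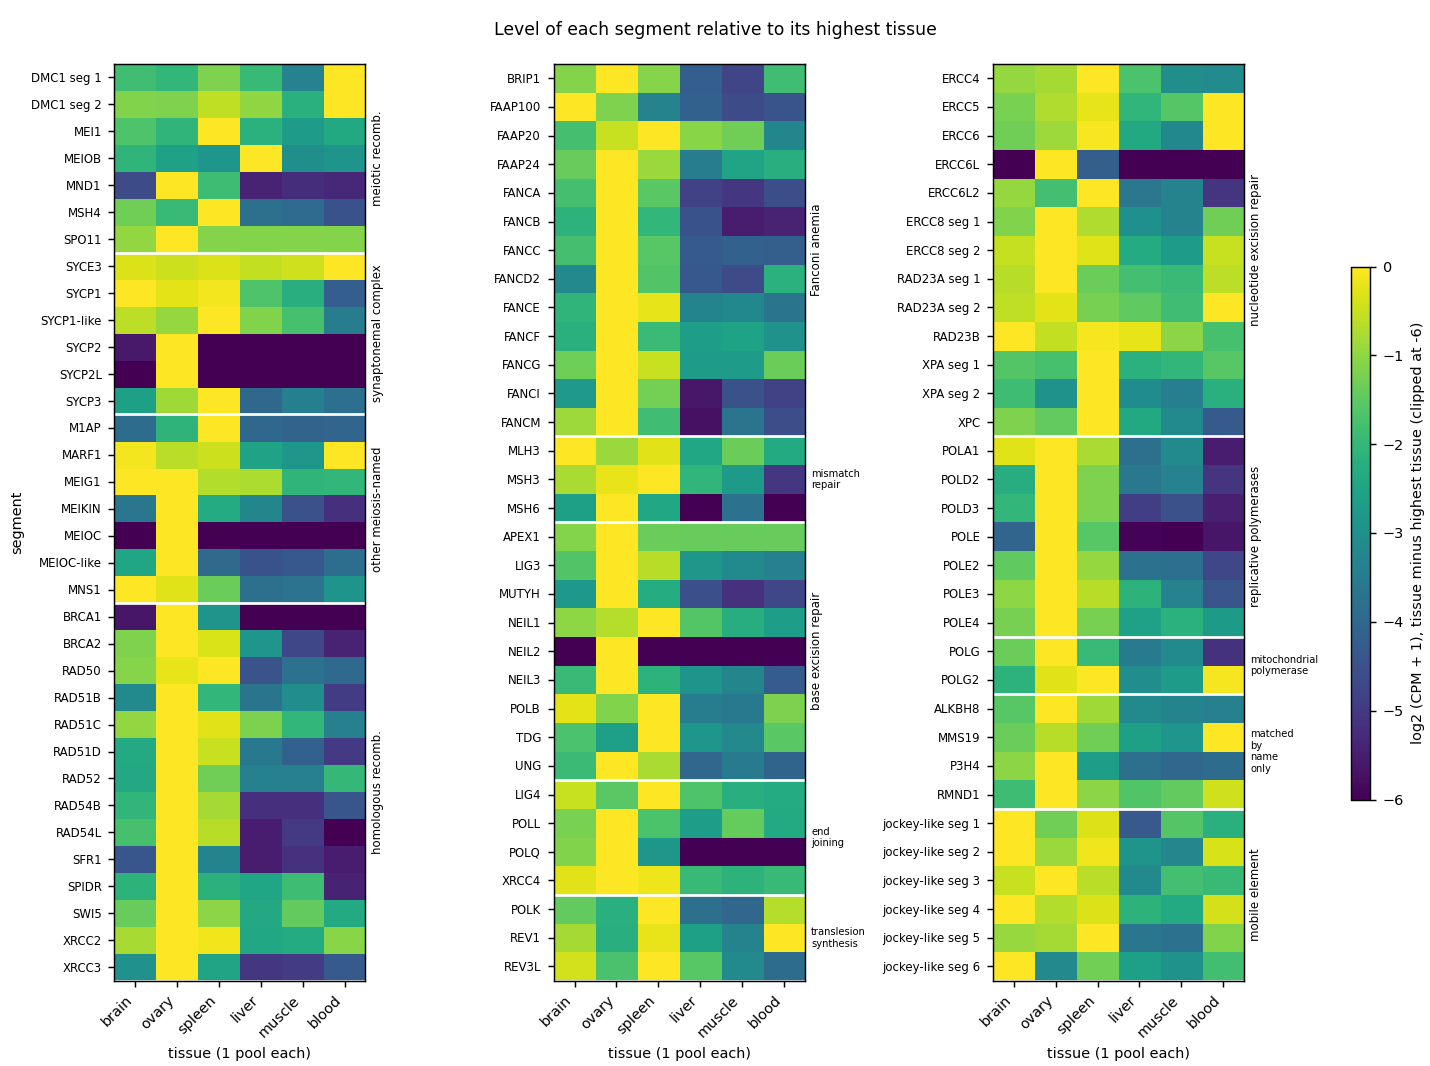
Level of 98 of the 101 members in the 6 tissues, as log2 (CPM + 1) minus that of the segment's highest tissue, with values below -6 shown as -6. Rows are segments grouped by role and columns are tissues with 1 pool each. Yellow marks the highest tissue, which was ovary for 11 of 13 Fanconi anemia genes (32.1% of all segments).

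The genes that start and carry out meiotic recombination had their highest level in different tissues. Of 7 such segments, 2 were highest in ovary, close to the 32.1% of all segments, 2 in spleen, 2 in blood, both of them segments of DMC1, and 1 in liver, and only MND1 was 2-fold above every other tissue in ovary. Their counts in the leading tissue ran from 30.5 for SPO11 and 121.5 for MEI1 to 1410.5 for MND1. Many of their levels in the other tissues rest on few counts.

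SPO11, the enzyme that makes the double-strand breaks, was found in ovary at 1.16 CPM (interval 0.788 to 1.66) and in brain at 0.102 CPM. It had 0 counts in spleen, liver, muscle and blood, which allows up to 0.182, 0.0848, 0.0701 and 0.0941 CPM in turn. With SYCP2L, MEIOC, NEIL2 and APEX1, SPO11 was 1 of 5 members unique to ovary at 1 CPM (2.33% of all segments), although its interval reaches below that threshold. MND1, which with its partner HOP2 helps DMC1 to pair DNA strands, stood at 53.9 CPM in ovary, 14.1 in spleen, 1.24 in brain, 0.467 in muscle, 0.376 in blood and 0.269 in liver. Ovary was 3.83-fold above spleen (interval 3.33 to 4.42), and the other 4 tissues were near or under 1 CPM.

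DMC1, the recombinase that is specific to meiosis, had 2 segments that matched different isoforms (X3 and X6) and came from the same assembled locus, so reads could be split between them. The first stood at 14.3 CPM in blood, 5.88 in spleen, 3.25 in brain, 2.95 in liver, 2.73 in ovary and 0.502 in muscle. The second stood at 6.07 CPM in blood, 3.76 in spleen, 2.53 in liver, 2.24 in brain, 2.16 in ovary and 0.537 in muscle. Both DMC1 segments were thus highest in blood and low in ovary. The blood level of the first segment was 2.43-fold that of spleen (interval 1.95 to 3.06), but it differed between platforms, with 12.9 CPM on NextSeq and 37.7 CPM on MiSeq.

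Other recombination genes peaked outside the ovary too. MSH4, which steadies crossover intermediates, was highest in spleen, at 34.5 CPM against 13.5 in brain, 8.27 in ovary, 1.57 in liver, 1.37 in muscle and 0.580 in blood. Spleen was 4.17-fold above ovary for MSH4. The segment named meiosis inhibitor protein 1-like (MEI1), whose mouse counterpart is needed for meiotic breaks, was also highest in spleen, at 7.37 CPM against 1.65 in brain and at most 0.993 in the other tissues. MEIOB, which binds single-stranded DNA in meiotic recombination, was present only in liver, at 7.01 CPM (interval 6.17 to 7.94), against 0.889 in brain, 0.344 in ovary, 0.121 in spleen, 0.0784 in blood and 0 in muscle. It was the only member unique to liver (0.463% of all segments). None was unique to brain (3.04%), spleen (1.21%), blood (0.409%) or muscle (0.376%). The liver level was 6.88 CPM on NextSeq and 9.55 CPM on MiSeq.

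Of 11 further meiosis genes listed by symbol and outside the name terms, 4 were matched and 3 of these were highest in ovary (32.1% of all segments). HORMAD2 was instead highest in spleen with CPM, at 10.5 against 6.64 in liver and 6.40 in ovary. Divided by the TMM factors, 2.05 in spleen and 0.567 in liver, its level comes out higher in liver than in spleen. HORMAD1, which marks unpaired chromosome axes, was at 90.7 CPM in ovary and 37.5 in spleen. The meiotic cohesin subunit SMC1B was at 59.4 CPM in ovary, 4.73 in brain and at most 0.455 elsewhere.

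The synaptonemal complex was split. SYCP2, a protein of its lateral elements, was at 105 CPM in ovary, 1.19 in brain and 0.606 in spleen compared with 0.187 in muscle, 0.170 in liver and 0.0784 in blood. Its relative SYCP2L, known from oocytes in mouse, was at 131 CPM in ovary, 0.432 in brain and 0.0606 in spleen, followed by 0.0234 in muscle, 0.0141 in liver and 0 in blood. For SYCP2 ovary was 87.9-fold above brain (interval 57.7 to 135) and for SYCP2L 304-fold (interval 164 to 749), and both platforms gave over 100 CPM in ovary for each.

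The remaining components did not follow SYCP2. SYCP1, which forms the transverse filaments, was at 54.8 CPM in brain, 50.7 in spleen, 46.2 in ovary, 16.8 in liver, 11.1 in muscle and 2.04 in blood. Brain, spleen and ovary lay close together for SYCP1, with a ratio of brain to spleen of 1.08 (interval 0.987 to 1.19), and with TMM factors muscle came out highest at 30.6 against 29.2 in brain. SYCP3, the partner of SYCP2 in the lateral elements, was highest in spleen, at 28.9 CPM against 15.6 in ovary, 3.99 in brain, 1.82 in muscle, 1.13 in blood and 0.919 in liver. The SYCP1-like segment was at 14.6 CPM in spleen, 9.22 in brain and 7.04 in ovary under CPM, and highest in liver with TMM factors.

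With CPM, MSH4, MEI1, SYCP3, SYCP1-like, M1AP and HORMAD2 were highest in spleen. With TMM factors SYCP1-like was highest in liver, and HORMAD2 was higher in liver than in spleen. Spleen held 220.3 CPM summed over 3 T cell segments and 209 CPM over 3 B cell segments. The germ cell marker DDX4 was at 8.67 CPM in spleen against 102 in ovary, while MOS had 0 counts in spleen and ZP2 stood at 0.0909 CPM. The part of these cells in the spleen levels of the meiosis genes was not tested.

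The other segments named for meiosis were led by ovary in 4 of 7 cases (32.1% of all segments). Of these, MEIG1 was highest in liver with TMM factors. MEIOC, which keeps germ cells in the meiotic programme in mouse, was at 122 CPM in ovary, 0.305 in brain, 0.0627 in blood, 0.0606 in spleen, 0.0467 in muscle and 0 in liver. The MEIOC-like segment was at 23.7 CPM in ovary, 3.51 in brain and at most 0.737 in the rest. MEIKIN, a kinetochore protein of meiosis, was at 63.8 CPM in ovary, 12 in spleen, 5.78 in liver, 4.19 in brain, 1.83 in muscle and 0.8 in blood. Ovary thus stood 402-fold above brain for MEIOC (interval 184 to 1095) and 5.31-fold above spleen for MEIKIN (interval 4.58 to 6.19).

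M1AP, whose name is meiosis 1 arrest protein and which mouse spermatogenesis needs, went the other way. It was at 16.3 CPM in spleen, 3.05 in ovary, 0.178 in brain and at most 0.0848 in liver, muscle and blood, so spleen was 5.34-fold above ovary (interval 4.15 to 6.94). MARF1, which controls meiosis and retrotransposons in mouse oocytes, was broad, at 223 CPM in blood, 208 in brain, 163 in spleen, 145 in ovary, 37.3 in liver and 30.6 in muscle. On MiSeq alone MARF1 was higher in brain, at 190 CPM against 175 in blood. MNS1, a protein of cilia and sperm tails in mouse, was at 27.9 CPM in brain, 22.6 in ovary and 10.4 in spleen.

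**Figure D4:**
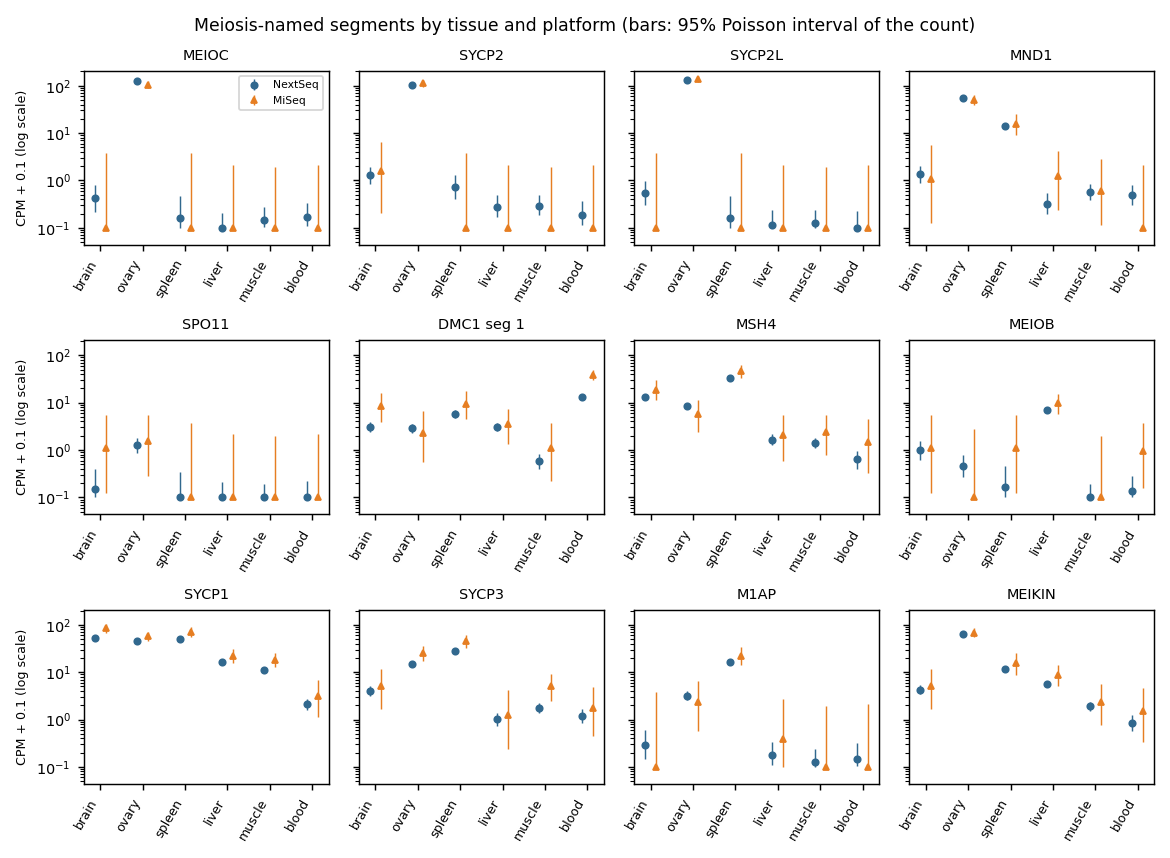
Level (CPM + 0.1, log scale) of 12 meiosis-named segments in the 6 tissues, as measured on NextSeq (circles) and MiSeq (triangles), with bars for the 95% Poisson interval of the count. MEIOC, SYCP2 and SYCP2L were above 100 CPM in ovary on both platforms and near the floor elsewhere, whereas DMC1 segment 1 was highest in blood, MEIOB in liver, and MSH4, SYCP3 and M1AP in spleen.

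Homologous recombination genes were led by ovary in 14 of 15 cases (32.1% of all segments). In 8 of these ovary was 2-fold above every other tissue (13.6% of all segments). With TMM factors RAD51C, SPIDR, SWI5 and XRCC2 were highest in liver, muscle or blood. BRCA1, which prepares broken ends for recombination, was at 393 CPM in ovary, 51.7 in spleen and 6.99 in brain against 3.79 in liver, 2.81 in blood and 1.96 in muscle. The level of BRCA1 in ovary exceeded that in spleen 7.61-fold (interval 7.09 to 8.17).

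SFR1, which acts with SWI5 in homologous recombination, had the highest ratio in this role. It was at 48.0 CPM in ovary, 4 in spleen, 1.32 in brain, 0.385 in muscle, 0.0470 in blood and 0.0424 in liver, a 12-fold excess of ovary over spleen (interval 9.35 to 15.6). Its partner SWI5 was lower, at 7.20 CPM in ovary, 2.97 in spleen, 2.13 in brain and 2.03 in muscle, and with TMM factors it was highest in muscle. Other genes of this role spread widely: ovary was 4.52-fold above spleen for RAD51B and 6.48-fold for XRCC3, but 1.22-fold for RAD51C and 1.11-fold for XRCC2, whose interval of 0.901 to 1.36 holds equality.

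BRCA2, a tumour suppressor needed for homologous recombination, was less different between tissues than BRCA1, at 232 CPM in ovary, 182 in spleen and 104 in brain compared with 30.9 in liver, 7.87 in muscle and 4.48 in blood. RAD54L, a DNA motor of homologous recombination, stood at 181 CPM in ovary, 116 in spleen, 53.5 in brain, 4.72 in muscle, 2.93 in liver and 1.05 in blood. For both genes the lead of ovary over spleen was under 2-fold, 1.27-fold for BRCA2 (interval 1.22 to 1.33) and 1.56-fold for RAD54L (interval 1.48 to 1.64). RAD50, which holds broken ends together in the MRN complex, was the only gene of this role highest in spleen, at 318 CPM against 271 in ovary, 148 in brain, 22.7 in muscle, 19.6 in blood and 13.4 in liver. Its partners outside the name terms were at 210.4 CPM in ovary and 102 in spleen for MRE11, and at 68.8 in ovary and 180.3 in spleen for NBN.

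The Fanconi anemia genes, which repair cross-linked DNA, were highest in ovary in 11 of 13 cases (32.1% of all segments). In 7 of them ovary was 2-fold above every other tissue (13.6% of all segments). With TMM factors BRIP1, FAAP24 and FANCG were highest in muscle or blood. FANCI and FANCD2, which form the clamp at the cross-link, were both more than 2-fold higher in ovary than in spleen. FANCI was at 126 CPM in ovary, 52.4 in spleen, 17.5 in brain, 4.59 in muscle, 3.51 in blood and 1.58 in liver. FANCD2 was at 77.7 CPM in ovary, 24.4 in spleen, 16.4 in blood, 7.75 in brain, 2.87 in liver and 2.24 in muscle. The excess of ovary over spleen was 2.40-fold for FANCI (interval 2.23 to 2.59) and 3.19-fold for FANCD2 (interval 2.86 to 3.56), but with DESeq2 size factors FANCD2 was higher in blood than in ovary.

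Members of the core complex, which marks FANCD2 and FANCI with ubiquitin, were not alike. FANCB was at 47.3 CPM in ovary, 10.8 in spleen and 10.1 in brain, followed by 1.15 in liver, 0.125 in blood and 0.0467 in muscle. FAAP100, which binds FANCB in the complex, was instead highest in brain, at 25.7 CPM against 10.9 in ovary, 1.70 in spleen, 0.509 in liver, 0.220 in blood and 0.0701 in muscle. FAAP100 was 2.35-fold higher in brain than in ovary (interval 2.03 to 2.73), and it was 1 of only 2 members led 2-fold by brain. FAAP20 was highest in spleen at 9.09 CPM, against 6.13 in ovary, and with TMM factors in muscle.

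BRIP1, the helicase of Fanconi group J that also binds BRCA1, was at 66.6 CPM in ovary, 30.8 in spleen and 30.2 in brain against 17.8 in blood, 2.69 in liver and 1.52 in muscle. With TMM factors its level was 31.5 in blood and 29.9 in ovary, so the lead of ovary over blood holds with CPM and not with TMM or DESeq2 factors. FANCM, the motor that finds stalled forks, was at 229 CPM in ovary, 124 in brain and 62.9 in spleen.

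Among damage-signalling and other repair genes outside the name terms, 13 of 17 segments of other repair genes and 5 of 8 of damage signalling were highest in ovary with CPM, against 32.1% of all segments. The kinases that report breaks and stalled forks were at 268 CPM in ovary and 219.6 in spleen for ATM, and at 99.6 in ovary and 68.8 in spleen for ATR. CHEK1, the kinase below ATR, was at 44.5 CPM in ovary, 3.33 in brain, 2.82 in spleen and at most 0.737 elsewhere. Over all 29 segments of the 3 lists, 11 were 2-fold higher in ovary than in every other tissue (13.6% of all segments), and NBN and PRKDC were 2-fold higher in spleen.

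The mismatch repair genes named here differed among themselves. MSH6, which finds single mispairs, was at 436 CPM in ovary, 80.8 in spleen, 71.6 in brain, 31.4 in muscle, 5.49 in liver and 0.643 in blood. For MSH6 the excess of ovary over spleen was 5.39-fold (interval 5.09 to 5.71). MLH3, which takes part in cutting meiotic crossovers, was highest in brain, at 114 CPM against 94.0 in spleen, 60.4 in ovary, 44.4 in muscle, 21.9 in blood and 20.3 in liver. With TMM factors MLH3 was highest in muscle. MSH3, which finds small loops, was at 63.4 CPM in spleen and 55.0 in ovary.

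In base excision repair 6 of 9 segments were highest in ovary (32.1% of all segments). NEIL2, a glycosylase for oxidised bases, had 5724 counts in ovary, which is 219 CPM (interval 213 to 224), and at most 1 count in any other tissue. NextSeq gave 216 CPM and MiSeq 256 CPM for NEIL2 in ovary, and no MiSeq library of another tissue held a read. The ratio of ovary to brain, where 1 count was found, was 4301 (interval 772 to 169923). NEIL3 was at 54.7 CPM in ovary, 13.5 in brain and 11.8 in spleen, followed by 6.46 in liver, 4.89 in muscle and 1.94 in blood, whereas NEIL1 stood at 14.4 CPM in spleen and 8.65 in ovary. The 3 glycosylases of this family thus ranged from a single-tissue pattern to a spread over all 6 tissues.

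Other base excision repair members differed as well. APEX1 was present in ovary alone, while POLB and the glycosylase TDG were highest in spleen with CPM. The ligase LIG3 was at 175 CPM in ovary and 111 in spleen. The segment named as an AP lyase and taken as APEX1 was close to the threshold in ovary, at 1.64 CPM (interval 1.19 to 2.21). It was at 0.229 CPM in brain and at most 0.0303 elsewhere. POLB, which fills the gap, was at 193 CPM in spleen, 164 in brain, 86.9 in ovary, 84.9 in blood, 16.5 in liver and 15.4 in muscle. TDG, which removes thymine from G/T pairs and oxidised forms of methylcytosine, was at 118 CPM in spleen, 39.6 in blood, 35.4 in brain, 18.5 in ovary, 15.7 in liver and 12.2 in muscle. Spleen was 6.35-fold above ovary for TDG and 2.22-fold for POLB, and with TMM factors both were highest in blood.

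Nucleotide excision repair segments were led by different tissues with CPM. Of the 13 segments 5 were highest in spleen (23.7% of all segments), 2 of them segments of XPA, and 4 in ovary (32.1%). Another 3 were highest in blood (8.89%) and 1 in brain (24.9%). ERCC4, 1 of the 5 led by spleen, was highest in liver with TMM factors. XPC, which senses bulky lesions, was at 373 CPM in spleen, 166 in brain, 137 in ovary, 72.3 in liver, 41.2 in muscle and 17.9 in blood. XPA, the scaffold of the incision complex, had 2 segments from different assembled loci. The first stood at 53.5 CPM in spleen, 17.5 in blood, 17 in brain, 15.2 in ovary, 12.4 in muscle and 11.1 in liver.

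The second XPA segment stood at 94.4 CPM in spleen, 25.1 in brain, 19.96 in blood, 11.4 in ovary, 10.3 in liver and 7.96 in muscle. Spleen was 2.73-fold above ovary for XPC (interval of ovary to spleen 0.351 to 0.382), 3.51-fold for the first and 8.27-fold for the second XPA segment. With TMM factors the first XPA segment was highest in muscle, whereas XPC and the second segment were highest in spleen, and with DESeq2 size factors both XPA segments were highest in blood. The nuclease ERCC5 was at 281 CPM in blood, 241 in spleen, 170.2 in ovary, 120.2 in brain, 92.8 in muscle and 67.3 in liver. ERCC6, which clears stalled RNA polymerase, was at 147 CPM in blood and 142 in spleen, with a ratio of 1.03 (interval 0.984 to 1.09). This near equality depends on the scaling. ERCC6 was at 260 in blood and 69.4 in spleen with TMM factors, but at 148 and 151 CPM without the mitochondrial genome.

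ERCC6L carries an excision repair name but is known as a motor of mitotic chromosome segregation. It was at 511 CPM in ovary, 27.3 in spleen, 1.82 in blood, 1.55 in brain, 0.187 in muscle and 0.113 in liver. Ovary was 18.7-fold above spleen (interval 17 to 20.6), and this was the only segment of the role 2-fold above every other tissue in ovary. Of the 6 segments of dividing cells, 4 were likewise higher in ovary than in spleen. These were PLK1 at 187 against 14.3 CPM, CCNA2 at 114 against 19.5, CDK1 at 353 against 94.1 and BUB1 at 108 against 75.4. MKI67 and TOP2A were higher in spleen, at 354 and 219.7 CPM against 93.9 and 110.2 in ovary.

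**Figure D5:**
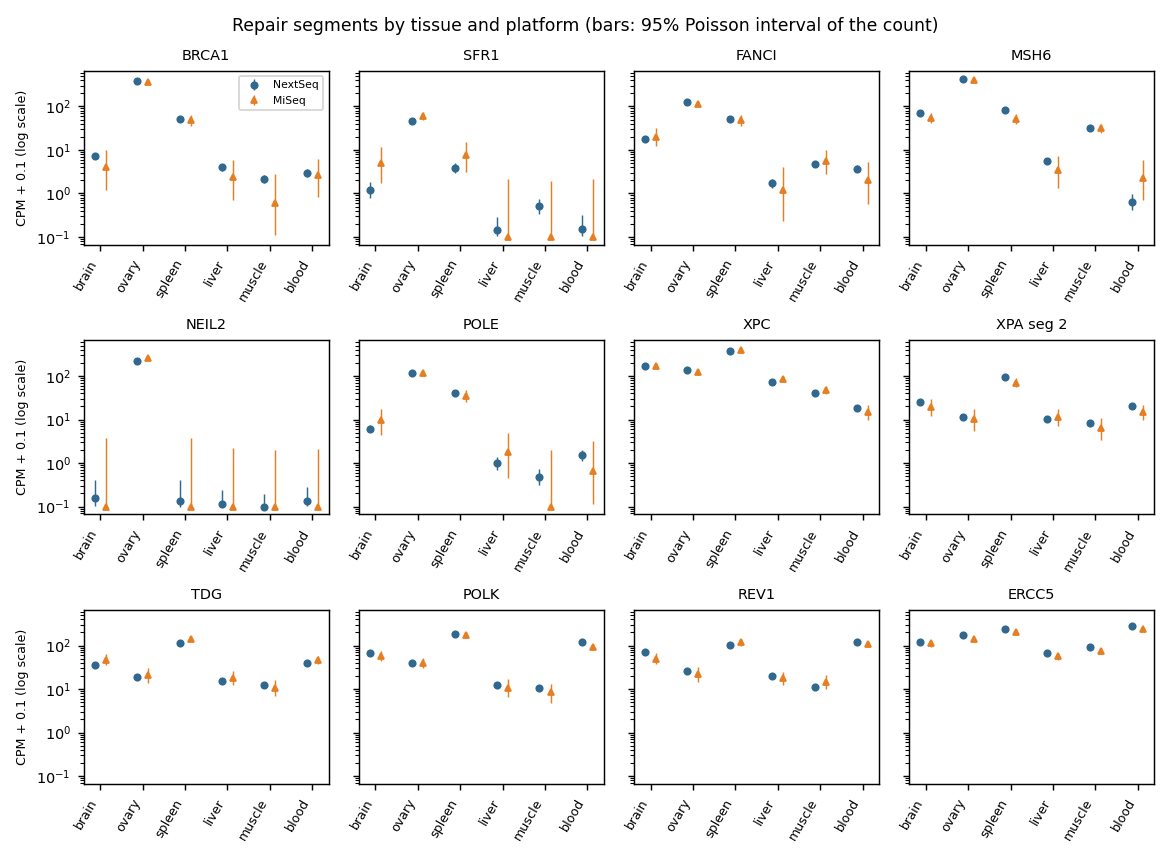
Level (CPM + 0.1, log scale) of 12 repair segments in the 6 tissues, as measured on NextSeq (circles) and MiSeq (triangles), with bars for the 95% Poisson interval of the count. BRCA1, SFR1, FANCI, MSH6, NEIL2 and POLE were highest in ovary on both platforms, XPC, XPA segment 2, TDG and POLK in spleen, and ERCC5 in blood.

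Among the end-joining genes POLQ, the polymerase of microhomology-mediated joining, was at 98.4 CPM in ovary, 44.4 in brain and 13.1 in spleen against 0.408 in blood, 0.0848 in liver and 0.0818 in muscle. For POLQ ovary was 2.22-fold above brain (interval 2.05 to 2.40) and 7.52-fold above spleen. POLL, a gap-filling polymerase, was at 83.2 CPM in ovary, 35.6 in brain, 30.5 in muscle, 25.1 in spleen, 15.7 in blood and 12.3 in liver, but with TMM factors it stood at 84.0 in muscle and 37.3 in ovary. LIG4, the ligase of classical end joining, was at 79.3 CPM in spleen, 55.8 in brain, 26.9 in ovary, 24.4 in liver, 16.2 in muscle and 15.3 in blood. LIG4 was highest in muscle with TMM factors, at 44.7 against 38.7 in spleen. Its partner XRCC4 did not differ beyond counting error between ovary and spleen, at 11.8 and 10.6 CPM (ratio 1.11, interval 0.923 to 1.35).

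The translesion polymerases, which copy past damage, were all lower in ovary than in spleen. POLK was at 184 CPM in spleen, 116 in blood, 67.5 in brain, 39.7 in ovary, 12.4 in liver and 10.3 in muscle. REV1 was at 122 CPM in blood, 106 in spleen, 69.0 in brain, 25.4 in ovary, 19.4 in liver and 11.3 in muscle. On MiSeq alone REV1 was higher in spleen, at 119 CPM against 109 in blood. REV3L, the catalytic subunit of polymerase zeta, was at 171 CPM in spleen, 129 in brain, 57.0 in liver, 51.0 in ovary, 18.3 in muscle and 10.7 in blood. Spleen exceeded ovary 4.64-fold for POLK, 4.17-fold for REV1 and 3.35-fold for REV3L, while against blood and liver the order moved with the scaling.

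The replicative polymerase subunits copy the genome in S phase and fill repair gaps. All 7 were highest in ovary with CPM (32.1% of all segments) and with TMM factors (16.9%). With DESeq2 size factors POLA1 was highest in brain. POLE, the catalytic subunit of polymerase epsilon, was at 118 CPM in ovary, 39.3 in spleen and 6.22 in brain, then 1.38 in blood, 0.933 in liver and 0.362 in muscle. POLA1, which starts new strands with primase, was at 129 CPM in ovary, 106 in brain and 75.9 in spleen compared with 14.0 in muscle, 8.51 in liver and 1.85 in blood. For POLE ovary was 3-fold above spleen (interval 2.76 to 3.28), and 1.22-fold above brain for POLA1 (interval 1.16 to 1.29). For the other 5 subunits the ratio of ovary to spleen lay between 1.60 for POLE3 and 3 for POLE4.

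Brain, where the dividing cell markers summed to 15.3 CPM, held POLA1 at 106 CPM, POLQ at 44.4 and FANCM at 124, but POLE at 6.22 and BRCA1 at 6.99. MKI67 was at 8.61 CPM and TOP2A at 1.24 in brain. The part of dividing cells in these brain levels was not tested. POLG, the polymerase of mitochondria, was at 110.0 CPM in ovary, 42.7 in brain and 28.2 in spleen, followed by 11.4 in muscle, 8.79 in liver and 2.18 in blood. Its accessory subunit POLG2 was at 49.7 CPM in spleen, 47.3 in blood, 40.79 in ovary, 10.7 in brain, 6.75 in muscle and 5.12 in liver, and was highest in blood with TMM factors.

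The name terms also drew in 10 segments that were placed outside the repair and meiosis roles. ERCC6L and MNS1 were kept in theirs. MMS19, which builds iron-sulfur clusters into repair and other enzymes, was at 114 CPM in blood, 72.1 in ovary and 45.4 in spleen against 44.4 in brain, 18.2 in liver and 15 in muscle. P3H4, an endoplasmic reticulum protein of collagen once named after the synaptonemal complex, was at 15.3 CPM in ovary, 6.99 in brain, 1.61 in spleen and at most 0.184 elsewhere. The other 2 of this kind were RMND1 and ALKBH8, both highest in ovary with CPM.

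The last 6 were segments of a jockey-like mobile element, whose reverse transcriptase carries "DNA polymerase" in its name. Brain led for 4 of them (24.9% of all segments), spleen for 1 (23.7%) and ovary for 1 (32.1%). The sixth was at 82.0 CPM in brain, 33.2 in spleen, 22.7 in blood, 12.5 in liver, 9.84 in muscle and 8.17 in ovary, so brain was 2.47-fold above spleen (interval 2.24 to 2.72), although with DESeq2 size factors blood was highest. With TMM factors the other 5 were highest in muscle or blood. The third was at 22.0 CPM in ovary, 15.2 in brain and 14.0 in spleen. Reads of a repeated element can be shared between copies, and the second segment differed between platforms, with 63.6 CPM on NextSeq and 128.6 CPM on MiSeq in brain. Without the 10 segments of these kinds, 57 of 90 members were highest in ovary (32.1% of all segments). The median log2 ratio of ovary to the highest other tissue was then 0.54.

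The 2 platforms gave the same leading tissue for 92 of 100 members, and for 46 of 46 members that were led 2-fold by a tissue. These 46 were picked by their lead in the sum of both platforms, to which NextSeq gave most of the counts. Over members with at least 20 observed MiSeq counts in a tissue, the SD of the log2 ratio of MiSeq to NextSeq was taken. It lay between 0.33 in spleen and 0.48 in blood. This spread holds counting error and differences between the platforms, such as their read length, and none of the spread between birds.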

How the data were processed

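Values are, as deposited by the authors, estimated counts of mapped reads per segment in steps of 0.5, not normalized. Larger values in part of the deposited columns carry commas as digit separators and were read as the same counts. The submitters' processing notes name Trimmomatic 0.36 and STAR 2.5.2a, while the study's methods name bwa mem for mapping to the protein-coding segments. The counting step behind the 0.5 counts is not given in the sources used here. The kit was stranded, and whether counting used strand is not given either.

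Counts of NextSeq and MiSeq libraries were summed by tissue and scaled to CPM in Python 3.11.15 (pandas 2.3.3, scipy 1.17.1). CPM stood in for the study's TPM. For τ, the natural log of each level was divided by that of the highest level, and 1 minus this quotient was added up over tissues and divided by 5. Folds are ratios of CPM, and calls and log2 ratios have 1 CPM added. A count of 0 was taken to allow up to 3 counts. TMM (edgeR 4.0.16) and DESeq2 1.42.0 size factors, both from counts rounded to whole numbers, served as alternative scalings. The scripts were checked on simulated data.

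The members, role lists, 3 lists of further pathway genes and marker lists were chosen with earlier results of these data known, and the name patterns of the lists were corrected after the names in the table were seen. Of 39 further pathway symbols 28 were matched, and of 34 marker symbols 31. Given in full were segments listed by symbol, those with the highest and lowest ovary ratio of their role at 10 CPM or more, those at 10 CPM or more and 2-fold higher in a tissue other than ovary, and those unique to 1 tissue. Further members named in a role (such as SWI5, MNS1, XRCC2 or ERCC5) and the plotted ones were chosen after their values were seen. No sequences or coordinates were used here. The values of 3 members are not reported here, although counts and medians over the members hold them.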

Additional observations from a re-analysis of the deposited data

How the results depend on the processing

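Each tissue is 1 pool of 2 birds, so no value has a biological replicate, and levels near 1 CPM rest on 16.5 counts in spleen to 42.8 in muscle. No paired analysis was possible because no result comes from a test. Leaving out either platform moved the median log2 ratio of ovary to the highest other tissue from 0.46 to between 0.442 and 0.444, and NextSeq alone gave a median τ of 0.469. The direction of that median turned with TMM factors (-0.43) and DESeq2 size factors (-0.54). It was 0.16 without the 50 most abundant segments of each tissue, 0.44 with counts thinned to the smallest total, 0.50 over members with 10 CPM, 0.43 with no filter, 0.39 with presence at 2 CPM, 0.63 with segments of a name summed, and 0.465 and 0.422 with 0.5 and 2 CPM added. The median τ was 0.396 with TMM factors, 0.399 with DESeq2 size factors, 0.3505 without the 50 most abundant segments, 0.463 with thinned counts, 0.461 over members with 10 CPM, 0.466 with no filter, 0.475 with presence at 2 CPM, 0.481 with segments of a name summed and 0.532 with a floor of 1 CPM.

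Members 2-fold higher in ovary than in every other tissue numbered 35 of 100 in the main setting (13.6% of all segments). They numbered 21 of 98 with TMM factors (7.43% of all segments) and 20 of 98 with DESeq2 size factors (6.74%). At a fold of 3 they numbered 20 of 100 (7.72%). Members highest in ovary numbered 40 of 98 with DESeq2 size factors (15.3% of all segments), against 61 of 100 (32.1%). Members unique to ovary numbered 3 at a minimum of 10 CPM, against 5 (2.33% of all segments in the main setting). Of 2 alternatives chosen after seeing the data, leaving out the mobile element and name-only segments gave medians of 0.54 (log2 ratio) and 0.492 (τ), and leaving out 19 segments of the mitochondrial genome 0.26 and 0.411.

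The leading tissue was the same for 65 of 100 members with TMM factors, 61 with DESeq2 size factors and 87 without the 50 most abundant segments. Of the 46 members led 2-fold by a tissue it was the same for 40, 37 and 45 in turn. Among these 46, the log2 ratio of the leading tissue to the highest other tissue changed sign with TMM factors for BRIP1 (-0.0707), TDG (-0.29), POLL (-1.15) and the first XPA segment (-0.38). With DESeq2 size factors it did so for BRIP1 (-0.42), FANCD2 (-0.0929), TDG (-0.69), POLL (-1.27), the sixth jockey-like segment (-0.0887) and the first and second XPA segments (-0.64 and -0.0230), and for POLL (-0.18) without the 50 most abundant segments. SPIDR and SWI5 went from ovary to muscle under both factors, with TMM levels of 23.2 in ovary and 37.2 in muscle for SPIDR and of 3.23 and 5.59 for SWI5. The cause was not tested.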
